A study of Mus musculus with 2 samples.

Results

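S100a4, S100a6, S100a8, S100a9, S100a10 and S100a11 are small calcium-binding proteins of the S100 family, and they were chosen by name as 6 of the 17 S100 genes among the 23946 genes counted. All 6 had unique molecular identifiers (UMIs, tags that mark single RNA molecules) in both libraries. S100a8 and S100a9 were highest by far in neutrophils, S100a6 and S100a11 were highest in control neutrophils but detected in every leukocyte class, and S100a4 and S100a10 were nearly absent from control neutrophils.

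S100 proteins bind calcium through a pair of EF hands and mostly act as dimers. S100A8 and S100A9 pair as calprotectin, an abundant neutrophil cytosolic protein that sequesters zinc and manganese and, once released, acts as an alarmin through Toll-like receptor 4 and RAGE (Ager). The other members are found in many cell types: S100A10 forms a complex with annexin A2, S100A11 binds annexins, S100A4 binds non-muscle myosin and accompanies cell motility, and S100A6 binds the calcyclin-binding protein Cacybp.

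CD45+ live cells were sorted from the hearts of adult female WT C57BL6 mice 24 hours after an intraperitoneal injection and were profiled by droplet scRNA-Seq, with 3 hearts pooled in 1 library per group. The ISO group received isoproterenol, a β-adrenergic agonist, at 200 mg/kg, and the control group received vehicle. The deposited treatment field gives the ISO dose for both samples, so the title and the methods tell which library is the control. With 1 library per group there is no replicate, no test was made, and the 95% intervals below cover counting error only.

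The libraries held 5927 (control) and 5514 (ISO) barcodes, of which 5641 and 5437 passed the cell filters, with medians of 4790 and 8537 UMIs, and 15 barcode sequences occurred in both. Ptprc, which encodes CD45, had a UMI in 91.0% of control and 88.8% of ISO cells. Each cell was assigned to 1 of 8 leukocyte classes from marker genes, and cells with markers of a second lineage over a set limit (27.7% and 26.7% of kept cells) were left out. The part that stayed differed between classes and libraries. It was 59.1% of control and 20.5% of ISO cells led by neutrophil markers. For cells led by macrophage markers it was 47.0% and 68.6%. No S100 gene was among the markers. The classes are ranges of marker levels rather than sorted types. They held, in control and ISO order, 117 and 67 neutrophils, 138 and 2762 monocytes, 841 and 558 macrophages, 106 and 323 dendritic cells, 1958 and 38 B cells, 210 and 32 T cells, 416 and 29 NK cells, and 172 and 89 group 2 innate lymphoid cells (ILC2). Among cells led by neutrophil markers, 25 control and 86 ISO cells lay within a factor of 2 of the second-lineage limit, as did 46 and 700 cells led by monocyte markers. The neutrophil marker Ly6g was at 0 in both neutrophil classes, while the other 11 neutrophil markers were detected. Levels are UMIs of the gene per 1000000 UMIs of the class (CPM). The 3′ chemistry tags each molecule once, so that levels of different genes can be set side by side without a length correction.

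All 6 genes lie on mouse chromosome 3 (GRCm38, the build called mm10 in the deposited notes), in a block of 4 and a block of 2. S100a4 (90603771 to 90606045, plus strand), S100a6 (90612882 to 90624181, plus strand), S100a8 (90668978 to 90670035, plus strand) and S100a9 (90692632 to 90695721, minus strand) follow each other with gaps of 6.84, 44.8 and 22.6 kb. S100a11 (93520488 to 93526287) and S100a10 (93555080 to 93564643), both on the plus strand, are 28.8 kb apart and start 2825 kb beyond S100a9. S100a4 overlaps the gene model Gm42674 on its own strand, so that reads there can be split or dropped in counting, whereas no annotated gene overlaps the other 5 members. The 100 bases before the RefSeq transcription start are shown for the 5 members in the promoter table (GRCm38.p6, each read along its own gene), because neighbouring genes of 1 block differed in their class pattern. Capitals mark TATAAA or TGANTCA on either strand.
S100a8, chr3:90668971-90669070, plus strand: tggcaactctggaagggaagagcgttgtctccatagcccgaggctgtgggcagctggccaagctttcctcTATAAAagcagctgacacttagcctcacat
S100a9, chr3:90695722-90695821, minus strand: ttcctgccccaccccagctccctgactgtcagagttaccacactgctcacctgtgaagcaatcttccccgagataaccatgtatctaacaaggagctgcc
S100a4, chr3:90603670-90603769, plus strand: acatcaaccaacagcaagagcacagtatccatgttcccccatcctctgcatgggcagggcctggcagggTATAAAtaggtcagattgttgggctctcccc
S100a6, chr3:90612794-90612893, plus strand: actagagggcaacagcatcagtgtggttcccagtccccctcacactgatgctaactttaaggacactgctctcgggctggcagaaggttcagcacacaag
S100a11, chr3:93520396-93520495, plus strand: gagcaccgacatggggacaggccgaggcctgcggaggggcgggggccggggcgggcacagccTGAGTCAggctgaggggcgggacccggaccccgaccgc
TATAAA, the core of the TATA box, was found in S100a8 and S100a4, beginning 30 and 31 bases before the start, and in 5.56% of all 32844 windows of that length. TGANTCA, the AP-1 motif, was found in S100a11 and in 2.73% of the windows. S100a10 was not in the table. A match is a string of letters in this window and says nothing about binding.

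S100a8 and S100a9 were by far the highest members in neutrophils. Control neutrophils held S100a8 at 34068 CPM (33461 to 34683) and S100a9 at 58526 CPM (57730 to 59330), and ISO neutrophils held them at 27267 CPM (26693 to 27850) and 51096 CPM (50310 to 51892). The pair made up 9.26% of all UMIs of control neutrophils and 7.84% of those of ISO neutrophils. No other leukocyte class exceeded 243 CPM of S100a8 or 121 CPM of S100a9 in either library. These ceilings hold for single-lineage cells, because cells of other classes with neutrophil genes over the limit had been left out. Left-out ISO cells led by monocyte markers held 24068 S100a8 UMIs in 794 cells, against 6301 in the 2762 kept. Left-out control cells led by macrophage markers held 10523 in 949 cells, against 178 in the 841 kept.

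Neutrophils varied widely in both alarmins. The quartiles of S100a8 over single control neutrophils were 15054 and 50705 CPM around a median of 31353 CPM, and over ISO neutrophils 8419 and 38697 CPM around a median of 19156 CPM. Across single neutrophils, log2 levels of S100a8 and S100a9 had a Pearson r of 0.89 over 117 control cells and 0.91 over 67 ISO cells. The same measure against Retnlg, a neutrophil secretory gene, was 0.42 and 0.57, and against the G-CSF receptor gene Csf3r it was -0.00 and 0.03. These describe cells of 1 library that differ in depth.

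**Figure D1:**
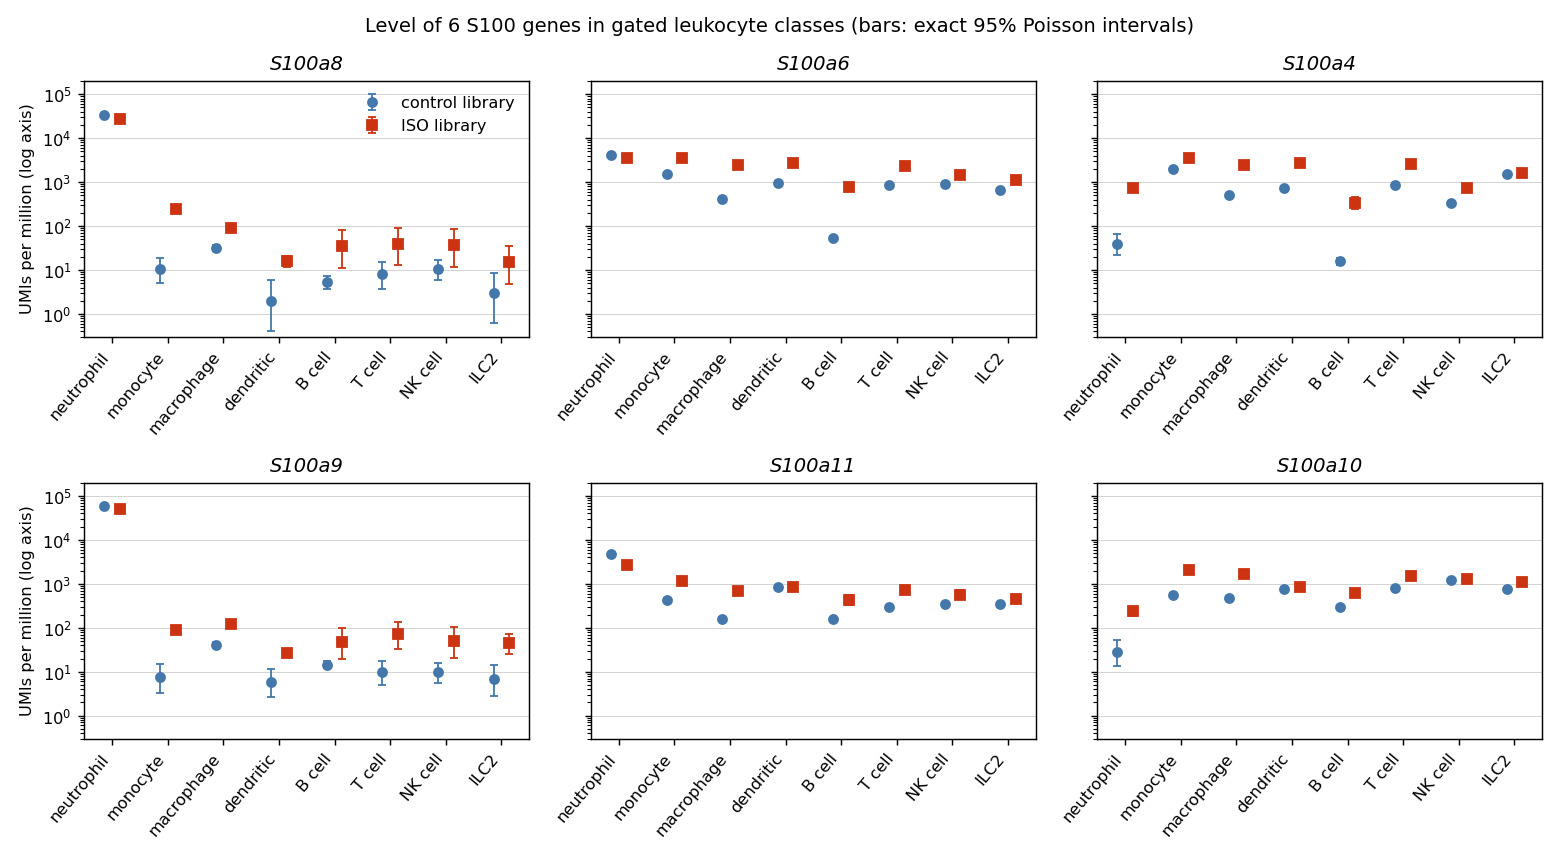
Level of each member (CPM, log axis) in 8 gated classes of the control (blue circles) and ISO (red squares) libraries, with exact 95% Poisson intervals. S100a8 and S100a9 are at 27267 CPM or more in neutrophils and at or under 243 CPM in the single-lineage cells of other classes. S100a4 and S100a10 are lowest in neutrophils and B cells in the control library.

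The remaining 4 members did not behave as a group in neutrophils. S100a6 and S100a11 were higher in control neutrophils than in any other control class, at 4232 CPM (4020 to 4452) and 4901 CPM (4673 to 5138), against 1546 CPM of S100a6 in monocytes and 829 CPM of S100a11 in dendritic cells, the next classes. S100a4 and S100a10 stood at 39.7 CPM (21.7 to 66.6) and 28.4 CPM (13.6 to 52.2) in the same neutrophils, from 14 and 10 UMIs. At 1000 UMIs per cell, 90.6% (83.8 to 95.2) of control neutrophils had an S100a6 UMI and 97.4% (92.7 to 99.5) an S100a11 UMI, but 0.855% (0.0216 to 4.67) had an S100a4 UMI and 1.71% (0.208 to 6.04) an S100a10 UMI. Without thinning the 4 shares were 98.3%, 100%, 7.69% and 7.69% at a median of 2728 UMIs. The S100a4 share was close to that of control B cells, which was 0.614% (0.318 to 1.07) at 1000 UMIs and 2.55% without thinning at a median of 3234 UMIs.

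S100a4, the motility-associated member, was highest in control monocytes at 1963 CPM (1879 to 2048), followed by ILC2 at 1570, T cells at 871, dendritic cells at 751, macrophages at 521 and NK cells at 329 CPM. These intervals did not overlap between neighbours. Neutrophils and B cells closed the order, B cells at 15.7 CPM from 115 UMIs. In the ISO library monocytes again led at 3480 CPM (3457 to 3503), while dendritic cells at 2755, T cells at 2650 and macrophages at 2493 CPM followed. The T cell interval (2374 to 2948) overlapped those of the other two, which did not overlap each other.

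S100a10, the annexin A2 partner, was highest in control NK cells at 1253 CPM (1199 to 1308), with T cells at 801, ILC2 at 766 and dendritic cells at 761 CPM indistinguishable by counting error. In the ISO library monocytes came first at 2037 CPM (2019 to 2054) and macrophages next at 1707 CPM (1672 to 1743). The lowest levels were 304 CPM in control and 631 CPM in ISO B cells, apart from those of neutrophils.

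S100a6 was lowest in B cells in both libraries, where control cells held 53.7 CPM (48.5 to 59.2) and ISO cells 783 CPM (646 to 942). S100a11 differed less between lymphocyte classes, from 160 CPM in B cells to 356 CPM in ILC2 in the control library and from 423 to 715 CPM in the ISO library. Control B cells therefore carried S100a10 and S100a11 with little S100a4 and S100a6, whereas control neutrophils carried S100a6 and S100a11 with little S100a4 and S100a10.

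**Figure D2:**
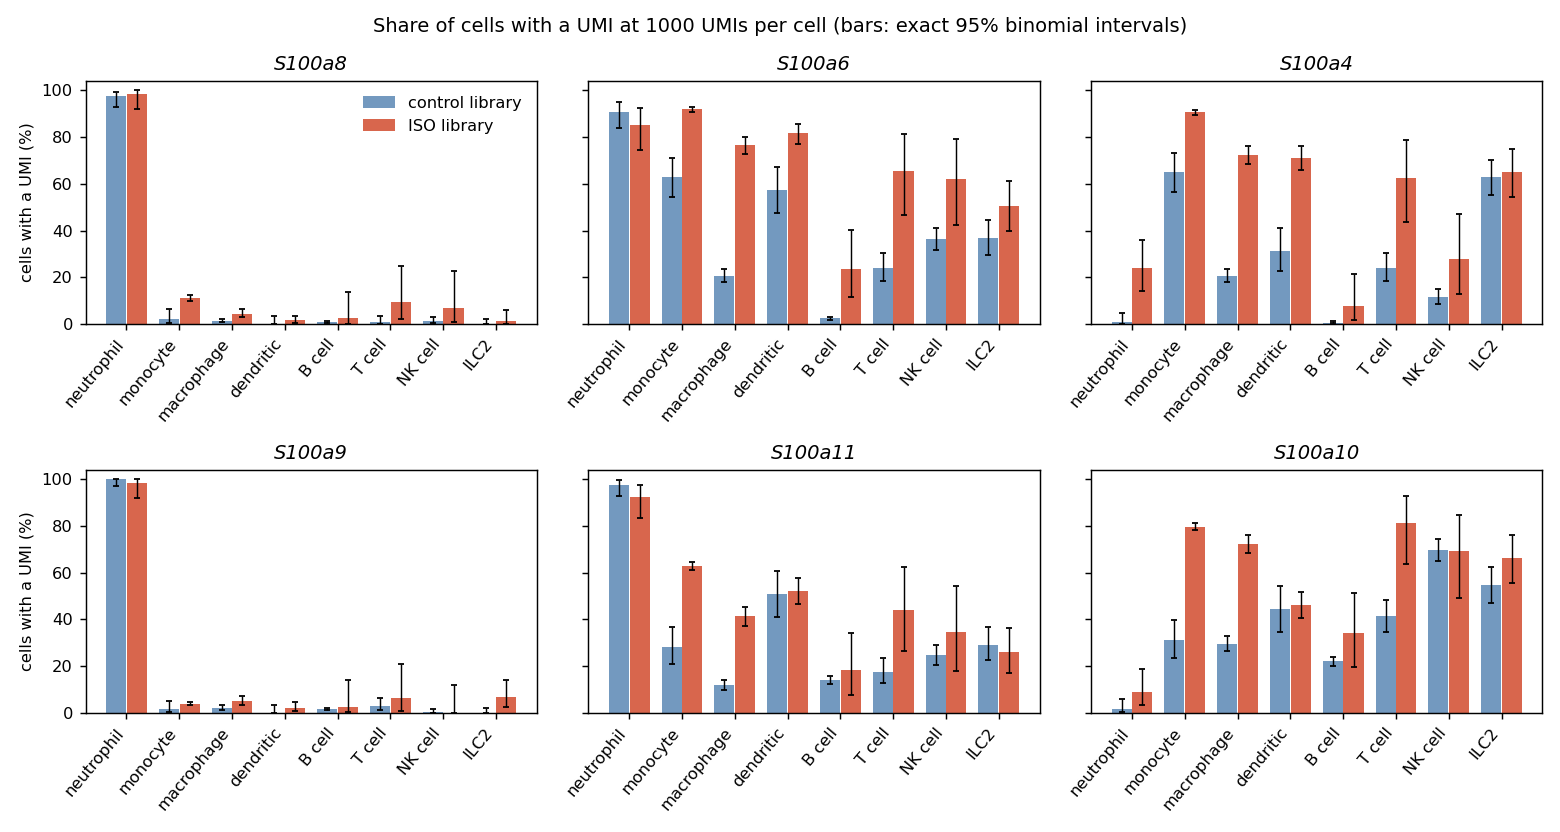
Share of cells of each class with at least 1 UMI of each member after every cell was thinned to 1000 UMIs (percent, with exact 95% binomial intervals). Control neutrophils reach 90.6% for S100a6 and 97.4% for S100a11 but 0.855% for S100a4, and the monocyte share for S100a10 is 31.2% in control and 79.5% in ISO.

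Between the libraries, all 6 members were at least 2-fold higher in ISO macrophages, against 9.37% of the 11150 genes with at least 20 UMIs in that class. S100a6 went from 412 to 2503 CPM, a log2 ratio of 2.60 (2.54 to 2.67). S100a4 went from 521 to 2493 CPM (2.26, 2.20 to 2.32), S100a11 from 162 to 686 CPM (2.08, 1.97 to 2.19) and S100a10 from 474 to 1707 CPM (1.85, 1.79 to 1.91). S100a8 (32.3 and 89.2 CPM) and S100a9 (41.4 and 121 CPM) differed by 1.46 and 1.55 on the log2 scale, and by 0.58 and 0.65, under 2-fold, when macrophages with a second lineage were let in. The median log2 ratio of all genes tested in macrophages was -0.12 and that of the members was 1.96. At 1000 UMIs per cell, the share of macrophages with an S100a4 UMI was 20.7% (18.0 to 23.6) in control and 72.4% (68.5 to 76.1) in ISO, and without thinning it was 37.9% and 88.7%.

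In monocytes, 5 of 6 members were at least 2-fold higher in the ISO library, against 11.2% of 11897 genes. S100a10 differed most of the broad members, from 570 to 2037 CPM (log2 ratio 1.84, 1.72 to 1.95), followed by S100a11 from 421 to 1158 CPM (1.46, 1.33 to 1.6) and S100a6 from 1546 to 3566 CPM (1.21, 1.14 to 1.28). S100a4, already high in control monocytes, had a log2 ratio of 0.83 (0.76 to 0.89). S100a8 and S100a9 had log2 ratios of 4.5 and 3.46 from 11 and 8 control UMIs, and of 0.61 and 0.25 with second-lineage cells let in. In dendritic cells 4 of 6 members passed 2-fold, against 6.55% of 9484 genes. S100a4 went from 751 to 2755 CPM there and S100a6 from 935 to 2659 CPM. S100a10 (761 and 863 CPM) and S100a11 (829 and 838 CPM) had log2 ratios of 0.18 (0.08 to 0.28) and 0.02 (-0.08 to 0.11). Monocytes, macrophages and dendritic cells shared a lineage in the second-lineage limit, so it removed no mixing among them. In control and ISO dendritic cells the summed monocyte markers were at 1620 and 2369 CPM. Macrophage markers were at 1767 and 860 CPM there, and dendritic markers at 1709 and 1542 CPM. The S100a8 and S100a9 calls in dendritic cells (2.81 and 2.13) fell to 0.57 and 0.13 when second-lineage cells were let in. They rest on 3 and 9 control UMIs. The ISO levels of 16.1 and 27.3 CPM were not above the 26.9 and 51.1 CPM of the ISO lymphocyte classes together. A change of level within resident cells and a change in which cells made up a class cannot be told apart in these data.

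Lymphocyte classes of the ISO library were small. In T cells 4 of 5 members with at least 20 UMIs passed 2-fold, against 10.5% of 6546 genes, and 1 of them, S100a9, turned from a log2 ratio of 2.88 to -1.81 when second-lineage cells were let in. In single-lineage T cells S100a4 stood at 871 CPM (817 to 927) in control cells and at 2650 CPM (2374 to 2948) in ISO cells. NK cells had 3 of 6 members past 2-fold, S100a4, S100a8 and S100a9, against 9.12% of 7652 genes. With second-lineage cells let in, S100a8 and S100a9 came to 0.80 and 0.87, and at a minimum of 50 UMIs S100a4 was the 1 member of 4 past 2-fold. S100a10, the leading member of control NK cells, was at 1253 and 1311 CPM (log2 ratio 0.07, -0.16 to 0.29). In ISO NK cells S100a6 was at 1435 CPM (1241 to 1649), an interval that includes the S100a10 level. ILC2 had 1 of 5 members past 2-fold, S100a9, against 6.37% of 6439 genes, and 0 of 4 at a minimum of 50 UMIs, and their S100a4 level was 1570 CPM in control and 1575 CPM in ISO (log2 ratio 0.01, -0.14 to 0.15).

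In B cells all 6 members passed 2-fold, against 14.3% of 10338 genes, but the ISO class had 38 cells, and S100a9 turned from 1.82 to -0.39 on the log2 scale when second-lineage cells were let in. S100a4 was at 15.7 CPM in control and 340 CPM (251 to 449) in ISO B cells, where 5 of 38 cells held its 49 UMIs, and 3 of these also held a UMI of the monocyte genes Fn1, Csf1r or Ccr2. Without barcodes that hold such a UMI the values were 4.45 and 43.9 CPM, the latter from 4 UMIs in 26 cells. S100a6 was at 40.0 and 614 CPM in the same comparison, a log2 ratio of 3.95 (3.50 to 4.36).

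**Figure D3:**
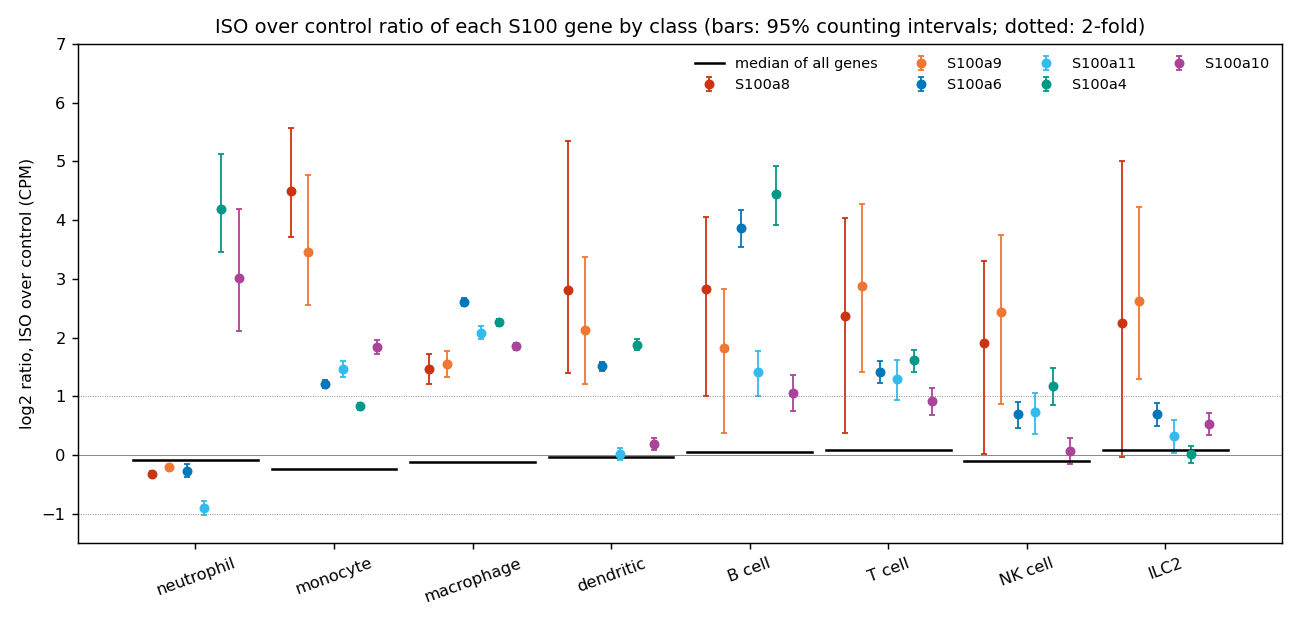
log2 ratio of ISO over control CPM for each member in each class, with 95% counting intervals; the black bars give the median of all genes tested in the class and the dotted lines a 2-fold difference. All members lie above 2-fold in macrophages, and S100a6, S100a8, S100a9 and S100a11 lie below 0 in neutrophils.

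Neutrophils went the other way for 4 members. S100a11 was at 4901 CPM in control and 2624 CPM (2448 to 2809) in ISO neutrophils, a log2 ratio of -0.90 (-1.02 to -0.78), and S100a8, S100a6 and S100a9 had log2 ratios of -0.32 (-0.36 to -0.28), -0.27 (-0.38 to -0.16) and -0.20 (-0.23 to -0.17). The median of all genes tested there was -0.09. None of the 4 reached 2-fold. The S100a8, S100a9 and S100a6 directions depended on which barcodes and which scale were used: in the 88 control and 23 ISO neutrophils with no Fn1, Csf1r or Ccr2 UMI, S100a8 was at 35759 and 44732 CPM, S100a9 at 61171 and 80968 CPM, and S100a6 at 4754 and 4718 CPM. S100a11 remained lower there, at 5316 and 3571 CPM (log2 ratio -0.57, -0.75 to -0.40).

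S100a4 and S100a10 were the 2 members at least 2-fold higher in ISO neutrophils, against 11.3% of 3615 genes. S100a4 was at 39.7 and 750 CPM and S100a10 at 28.4 and 238 CPM. A UMI of the monocyte genes Fn1, Csf1r or Ccr2 was held by 44 of 67 ISO neutrophils, against 29 of 117 in control. These shares were not thinned, and the median was 4023 UMIs in ISO and 2728 in control neutrophils. Fn1 had 0 UMIs in control and 24 in ISO neutrophils, whereas Csf1r was at 170 and 143 CPM. The 44 ISO cells held 98.3% of the S100a4 UMIs of ISO neutrophils. In the 23 ISO neutrophils without such a UMI, S100a4 and S100a10 each had 4 UMIs, or 43.7 CPM (11.9 to 112), against 21.5 CPM (6.97 to 50.1) and 34.3 CPM (14.8 to 67.6) in control. S100a6, S100a8, S100a9 and S100a11 were thus abundant, and S100a4 and S100a10 scarce, in the neutrophils of both libraries that lacked monocyte UMIs.

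S100a8 was present in ISO monocytes out of proportion to S100a9. In neutrophils S100a8 gave 36.8% (36.3 to 37.3) of the UMIs of the pair in control and 34.8% (34.2 to 35.4) in ISO. In ISO monocytes it gave 73.6% (72.7 to 74.5), with 6301 S100a8 and 2259 S100a9 UMIs, or 243 CPM (237 to 250) and 87.3 CPM (83.7 to 91.0). At the neutrophil ratio the S100a9 UMIs would go with 1205 S100a8 UMIs, leaving 5096, or 80.9% of the total. Control monocytes held 11 and 8 UMIs in 138 cells.

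The S100a8 of ISO monocytes was concentrated in few cells. Of 2762 cells, 233 had at least 5 S100a8 UMIs and held 81.0% of them, and 140 of these 233 had no S100a9 UMI. In control neutrophils 113 of 117 cells had at least 5 S100a8 UMIs and none of them lacked S100a9. ISO monocytes with a Ly6c2 UMI, a mark of classical monocytes, and none of Ace or Treml4, which mark the nonclassical subset, held S100a8 at 387 CPM (377 to 398) and S100a9 at 105 CPM (99.4 to 111) over 1356 cells. The 185 cells with the opposite combination held 76.1 CPM (63.6 to 90.4) and 64.4 CPM (53.0 to 77.7). The share of ISO monocytes with an S100a8 UMI was 11% (9.83 to 12.2) at 1000 UMIs and 35.3% without thinning at a median of 8099 UMIs. In ISO B cells it was 2.63% (0.0666 to 13.8) and 13.2% at a median of 3261 UMIs.

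Other neutrophil genes ranged widely in ISO monocytes, and several stood above S100a8 relative to neutrophils. Retnlg stood at 0.0559% (0.0475 to 0.0653) of the neutrophil level in ISO monocytes and S100a9 at 0.171% (0.164 to 0.178), whereas S100a8 stood at 0.893% (0.871 to 0.915) and the siderophore-binding Lcn2 at 5.05% (4.89 to 5.22). Wfdc21 stood at 2.78% (2.59 to 2.97), Csf3r at 2.26% (2.09 to 2.44) and the chemokine receptor gene Cxcr2 at 0.354% (0.275 to 0.450). Retnlg, Csf3r and Cxcr2 are among the genes by which barcodes with a second lineage were left out, so their values are held down by the selection. The granule gene Ngp had 3 UMIs in ISO monocytes and Camp none, which allows up to 3 UMIs. S100a8 took 44.0% of the pair when cells with a second lineage were allowed in and 82.1% at a limit set at 0.1 in place of 0.2, in each case more than in neutrophils.

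**Figure D4:**
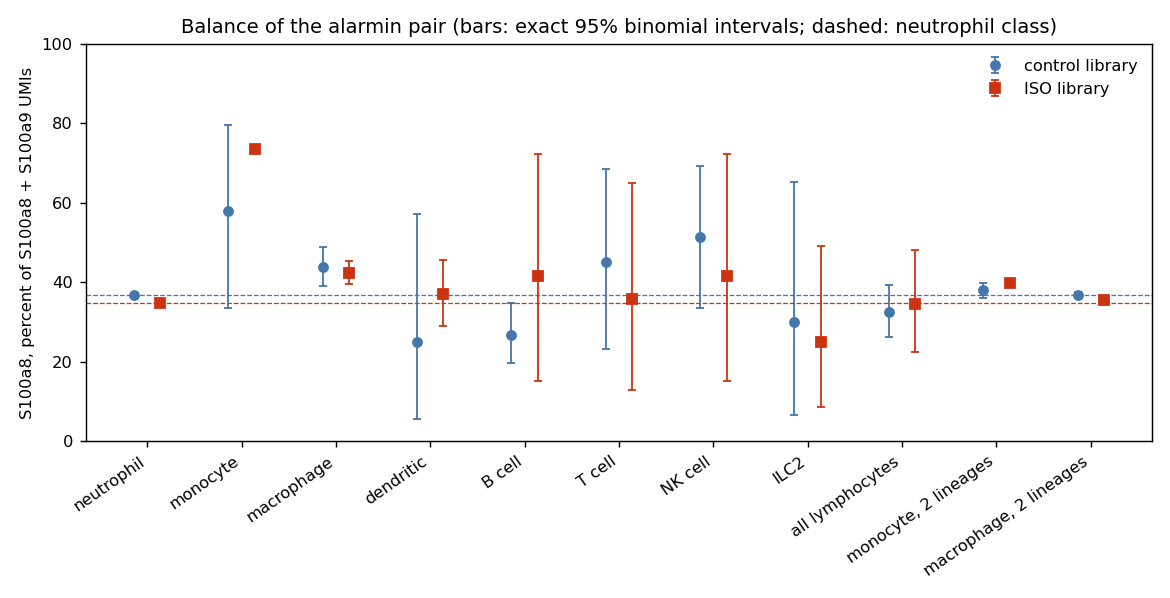
S100a8 as a percent of the S100a8 and S100a9 UMIs of each class, with exact 95% binomial intervals; dashed lines give the neutrophil value of each library, and the last 2 groups are cells with a second lineage over the limit. ISO monocytes stand at 73.6%, while the lymphocyte classes together stand at 32.5% (control) and 34.5% (ISO), near the neutrophil values of 36.8% and 34.8%.

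Lymphocytes held S100a8 and S100a9 at traces, in classes from which barcodes with neutrophil receptor and granule genes over the limit had been left out. Retnlg is among the genes used for that, so its values below are held down by the selection. The 4 lymphocyte classes together had 68 S100a8 and 141 S100a9 UMIs in 2756 control cells and 20 and 38 UMIs in 188 ISO cells. B cells were 1958 of these control cells and 38 of these ISO cells, so the pooled values compare unlike mixtures. Relative to neutrophils of the same library, S100a8 stood at 0.0180% (0.0140 to 0.0228) in control and 0.0987% (0.0603 to 0.152) in ISO lymphocytes, and S100a9 at 0.0217% (0.0183 to 0.0256) and 0.10% (0.0708 to 0.137). The neutrophil genes Retnlg, at 0.0263% and 0.0615%, and Lcn2, at 0.0196% and 0.146% from 2 and 3 UMIs, had overlapping intervals with them in each library. Wfdc21, a small secreted protein gene listed as 1100001G20Rik, stood well above them in control lymphocytes at 1.57% (1.29 to 1.88), with 113 of its 115 UMIs in B cells, and at 0.358% (0.0738 to 1.05) in ISO lymphocytes. Il1b, which monocytes and macrophages of these libraries also held, stood at 0.563% and 2.71%. Of its 541 UMIs in ISO lymphocytes, 276 were in the 29 NK cells.

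Over all lymphocytes S100a8 gave 32.5% (26.2 to 39.3) of the pair in control and 34.5% (22.5 to 48.1) in ISO, intervals that include the neutrophil values. Control B cells, with 39 S100a8 and 107 S100a9 UMIs, stood at 26.7% (19.7 to 34.7), below the neutrophil value of 36.8%, and control NK cells at 51.5% (33.5 to 69.2). Among control classes S100a8 ranged from 2.98 CPM in ILC2 to 10.4 CPM in NK cells and S100a9 from 6.96 CPM in ILC2 to 14.6 CPM in B cells, and among ISO classes from 14.9 to 39.3 CPM and from 44.8 to 70.8 CPM. No single lymphocyte held more than 3 UMIs of either gene. The 2-fold calls of S100a8 and S100a9 in lymphocyte classes rest on these traces, which differed between the libraries by more than the library means: S100a9 stood at 12.7 and 51.1 CPM in lymphocytes and at 1402 and 2119 CPM over all kept cells, or 0.907% and 2.41% of that mean. The part of free RNA in these values was not tested.

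The broad members differed from the alarmins here. In control lymphocytes S100a4 stood at 14.8% (14.3 to 15.3) of the monocyte level, S100a6 at 20.5% (19.8 to 21.2), S100a11 at 52.1% and S100a10 at 94.0% (91.6 to 96.4). The monocyte and macrophage lysozyme gene Lyz2 stood at 1.25% (1.21 to 1.30) of its monocyte level in the same cells and the complement gene C1qa at 0.581% (0.521 to 0.646) of its macrophage level. In B cells alone, S100a4 stood at 0.800% (0.661 to 0.960) of the monocyte level in control.

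**Figure D5:**
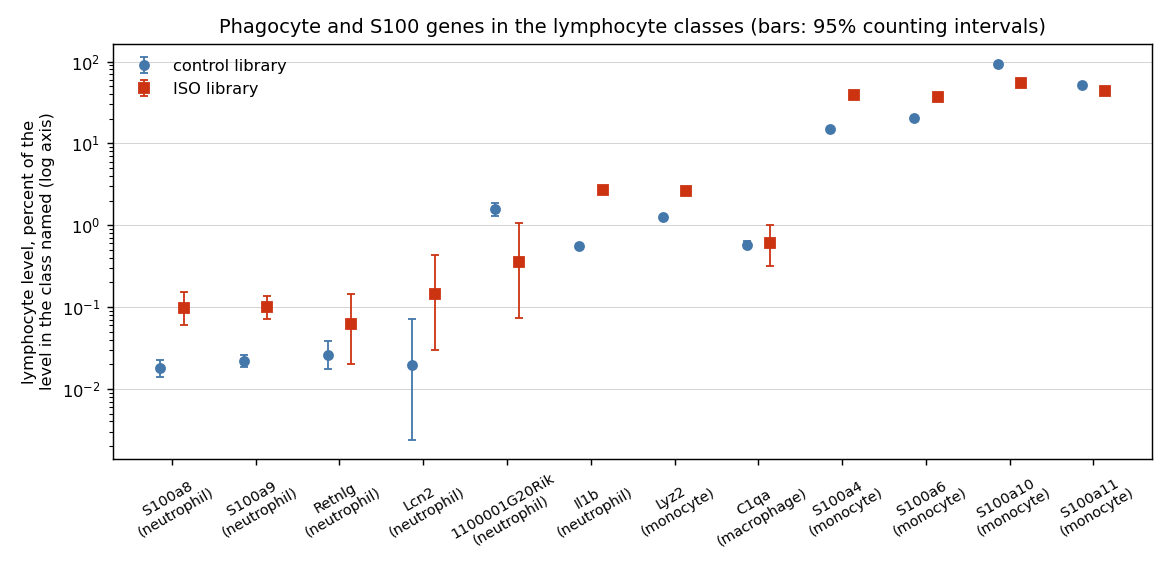
Level of phagocyte genes and S100 members in the 4 lymphocyte classes together, as a percent of the level in the class named under each gene in the same library (log axis, 95% counting intervals). S100a8 and S100a9 lie near 0.02% in control and 0.1% in ISO beside Retnlg and Lcn2, 1100001G20Rik (Wfdc21) lies at 1.57% and 0.358%, and S100a10 lies at 94.0% and 54.9%. B cells are 1958 of 2756 control and 38 of 188 ISO lymphocytes, so the libraries differ in mixture.

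Within macrophages and monocytes the broad members were higher in the ISO library in every subset compared, while the order of the subsets varied. Control macrophages with at least 2 UMIs of Lyve1 and Folr2, markers of resident macrophages, and no Ccr2 UMI held S100a4 at 684 CPM (650 to 719), and those with at least 2 Ccr2 UMIs and neither resident marker held 580 CPM (519 to 645). In the ISO library the values were 1933 CPM (1832 to 2039) over 107 cells and 2858 CPM (2784 to 2935) over 198 cells. The order of these subsets for S100a4 was thus opposite in the libraries. S100a6 was at 522 and 543 CPM in control and at 1957 and 2881 CPM in ISO, and S100a10 at 598 and 493 CPM in control and at 1638 and 1733 CPM in ISO. S100a11 in these subsets was at 137 and 192 CPM in control and at 400 and 819 CPM in ISO. Control monocytes with Ly6c2 held S100a10 at 723 CPM (638 to 816), against 218 CPM (163 to 286) in those with Ace or Treml4, and in ISO monocytes the levels were 2299 and 1372 CPM.

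Genes for the proteins that S100 members bind were described from a list of 14, of which Trpv5 was not analysed here. Anxa2, which encodes the partner of S100A10, was at least 2-fold higher in ISO monocytes (486 and 1365 CPM), macrophages (163 and 958 CPM), B cells, T cells and ILC2, but the partner levels did not match class by class. Control neutrophils held Anxa2 at 879 CPM with S100a10 at 28.4 CPM, and control ILC2 held Anxa2 at 35.8 CPM with S100a10 at 766 CPM. Cacybp, for the S100A6-binding protein, was at 63.9 and 173 CPM in macrophages. Myh9, for the myosin that S100A4 binds, was at 431 and 337 CPM in macrophages. Among the receptor genes, Tlr4 was at 11.2 CPM in control and 32.9 CPM in ISO monocytes and at 36.9 and 108 CPM in neutrophils, while Ager had 17 UMIs in all ISO monocytes. Over the list, 4 of 12 genes with at least 20 UMIs were at least 2-fold higher and 2 lower in monocytes, and 3 of 11 were higher and 0 lower in macrophages. Over all genes, 11.2% were at least 2-fold higher and 20.2% lower in ISO monocytes. In ISO macrophages 9.37% were higher and 14% (1562 of 11150) lower.

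Of the other S100 genes, only S100a13 and S100a1 had more than 20 UMIs in most of the myeloid classes. S100a13 stood at 171 and 226 CPM in macrophages and 165 and 236 CPM in monocytes, and S100a1 at 78.8 and 66.1 CPM in macrophages and 40.2 and 40.6 CPM in monocytes, all under a 2-fold difference. S100a1 was at 43.0 and 20.9 CPM in dendritic cells, a log2 ratio of -1.04 (-1.55 to -0.53), past 2-fold lower as were 9.15% of all genes there. In neutrophils S100a13 stood at 56.7 and 130 CPM, from 20 and 41 UMIs. S100g held 204 control UMIs in all, 81 of them in B cells. S100a16, S100b, S100a5 and S100a3 had 193, 65, 39 and 20 UMIs in both libraries together, and S100a2, S100a7a, S100a14 and S100z had fewer than 20.

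Of the granule and secretory genes, Lcn2 was at 922 and 2758 CPM in control and ISO neutrophils, and Ngp at 31.2 and 219 CPM, while Wfdc21 (661 and 1128 CPM), Lyz2 (3582 and 3326 CPM) and Il1b (25187 and 26873 CPM) differed by less than 2-fold. Chi3l3, the chitinase-like gene also called Chil3, had no UMI in control neutrophils and 333 in ISO neutrophils, and it was at 568 and 3691 CPM in monocytes. As 44 of the 67 ISO neutrophils held a UMI of Fn1, Csf1r or Ccr2, its source there was not tested. Ltf and Camp had at most 5 UMIs in either neutrophil class.

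Over the 16 class and library values, each as log2(CPM + 10), the genes most like S100a8 among 9382 genes were Slfn4 (Pearson r = 0.979), Lcn2, Fpr1, Lrg1 and Sfxn5, and those most like S100a9 were Gm5483 (0.973), Chi3l1, Asprv1, Slfn4 and Fpr1. S100a4 was most like Tagln2 (0.874), Arf5, Ssbp4, Siva1 and Myeov2, and S100a10 most like Polr2f (0.941), Krtcap2, Lgals1, Nme1 and Rpn2. Among the members the coefficient was 0.988 for S100a8 with S100a9, 0.839 for S100a8 with S100a11, 0.807 for S100a6 with S100a11, 0.721 for S100a4 with S100a10, and -0.689 for S100a9 with S100a10. These points share 2 libraries and are not independent. The lists also depended on the amount added: with log2(CPM + 1) the genes most like S100a8 were Gm5483, G0s2, Lcn2, Asprv1 and Chi3l1. The S100a4 and S100a9 lists changed in part, and the S100a10 list kept its genes.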

How the data were processed

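The deposited files hold raw UMI counts per gene and cell barcode, which the authors made from 10x 3′ libraries. The submitters' processing notes name bcl2fastq 2.19.1.403, UMI-tools 1.0.0, STAR 2.7.3a, featureCounts 1.6.4 and mm10. The annotation release is not given in the sources used here. Cells with over 500 and under 6000 genes and under 25% mitochondrial UMIs were kept.

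Each marker gene was scaled to its 90th percentile among cells that held it, and the class with the highest mean score led, given at least 3 of its markers. Neutrophils also needed a Csf3r or Cxcr2 UMI. Cells whose score for another lineage reached 0.2 were left out, and no doublet caller was run. Monocytes, macrophages and dendritic cells shared a lineage there, as did T cells, NK cells and ILC2. UMIs were summed per class and library. Ratios had 0.5 UMI added. Genes under 20 UMIs were left out of the 2-fold counts and, apart from the members, had no ratio. Ratios of the members were computed at any number of UMIs, also under the alternatives. Intervals are exact Poisson, Clopper-Pearson, or conditional binomial for ratios, at 95%. Cells were thinned at random to 1000 UMIs for shares.

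The members, the gene lists and the gate limits were chosen with earlier results of these data known, the limits on marker genes alone. Named genes are the members and the fixed lists of family, partner and granule genes, with the 5 genes most like 4 members. Marker genes beside results, the subset splits and the genes of unassigned cells were named after values were seen. Fcmr, Ighd and Hbb-b1 of the marker lists were not used here. Counting steps were tested on simulated data. Python 3.11.15 with numpy, scipy and matplotlib was used. Positions come from release 21 of the GENCODE mouse annotation (M21). Alternatives covered scaling, totals, gate limits, cell filters, free RNA, thinning depth, UMI minimum and the CPM added for gene likeness.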

Additional observations from a re-analysis of the deposited data

Results flagged for a closer look

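In all, 4 members had a negative log2 ratio of ISO over control in neutrophils and a positive one in macrophages, with counting intervals on opposite sides of 0. These were S100a11 (-0.90 against 2.08), S100a8 (-0.32 against 1.46), S100a6 (-0.27 against 2.60) and S100a9 (-0.20 against 1.55). The difference between the classes was not tested, since each group is 1 library. S100a11 stayed negative in neutrophils under every alternative run, while the other 3 did not.

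S100a4 was at 4555 CPM (4375 to 4741) in the 77 ISO cells that no marker list assigned to a class, above the 1048 CPM (932 to 1175) of the 90 such control cells and above every gated class. The genes that stood out most in those ISO cells, among genes with at least 100 UMIs and chosen after their values were seen, were the mast cell proteases Tpsb2 (254 against 2.19 CPM in the assigned ISO cells), Cpa3 (237 against 3.42 CPM) and Cma1, followed by the chemokine genes Ccl22 and Ccl17 (1250 against 100 CPM). The cells that no list assigned are therefore mixed.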

How the results depend on the processing

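With 1 library per group, no replicate could be left out. No paired analysis was possible because the result comes from no test. Of 574 log2 ratios recomputed under alternatives, 411 stayed within their counting interval and 146 moved beyond it. The other 17 had a reported interval that excluded 0 and changed sign. Sign changes of ratios whose interval included 0 are not among the 17, such as S100a11 in dendritic cells (0.02, lowest alternative -0.69). The signs of S100a4, S100a6, S100a10 and S100a11 in macrophages and monocytes held under all 12 alternatives.

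With UMIs per cell and no scaling, the log2 ratio was 0.37 for S100a6, 0.32 for S100a8 and 0.44 for S100a9 in neutrophils, -0.30 for S100a10 in dendritic cells, and -0.11 for S100a10 and -0.31 for S100a11 in ILC2. With a second lineage allowed it was 0.40 for S100a6 in neutrophils, -0.39 for S100a9 in B cells, and -1.77 for S100a8 and -1.81 for S100a9 in T cells. With the B cell level subtracted it was -0.98 for S100a10 in dendritic cells, -0.36 for S100a6 and -0.32 for S100a11 in NK cells, and -1.01 for S100a6 and -3.04 for S100a11 in ILC2. Without barcodes holding a Fn1, Csf1r or Ccr2 UMI, an alternative chosen after seeing the data, it was 0.32 for S100a8 and 0.40 for S100a9 in neutrophils.

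Without barcodes holding a Fn1, Csf1r or Ccr2 UMI, 0 members in neutrophils were counted as at least 2-fold higher. S100a4 (5 control and 4 ISO UMIs) and S100a10 (8 and 4) fell under the minimum of 20 UMIs there and could not be counted. Their log2 ratios were 1.06 (-1.31 to 3.24) and 0.43 (-1.83 to 2.25). The members at least 2-fold higher were 2 in dendritic cells with a second lineage allowed and 2 in T cells without scaling. In ILC2 they were 3 with a second lineage allowed or at the limit of 0.4. At a minimum of 50 UMIs they were 1 of 4 in NK cells and 0 of 4 in ILC2, while 5.97% of all genes in T cells, 5.63% in NK cells and 3.49% in ILC2 were at least 2-fold higher. The gate changes on the S100a8 share of the pair were also chosen after seeing the data. In ISO monocytes this share was 44.0% with a second lineage allowed, 82.1% at the stricter limit of 0.1, 56.5% at 0.4, 72.4% with no cell filter and 77.5% without the 5% of cells with most UMIs, and in ISO neutrophils it was 35.6% without Fn1, Csf1r or Ccr2 UMIs. At the limit of 0.4, lymphocytes held S100a8 at 0.0528% (control) and 0.650% (ISO) of the neutrophil level and S100a9 at 0.0620% and 0.258%. The causes were not tested. Thinning to 2000 UMIs moved 56 of 96 shares beyond their interval.

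The ISO lymphocyte classes, of 29 to 89 cells, limit what can be read of the members there.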

Other observations

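Most S100a8 and S100a9 UMIs of the ISO library lay in cells with transcripts of 2 lineages. Single-lineage ISO neutrophils held 8583 of the 73300 S100a8 UMIs of kept ISO cells, while cells led by neutrophil markers with a second lineage over the limit held 26079 in 260 cells and such cells led by monocyte markers held 24068 in 794 cells. In these monocyte-led cells S100a8 gave 39.9% (39.5 to 40.2) of the pair, against 73.6% in single-lineage ISO monocytes. In the control library, macrophage-led cells with a second lineage held 10523 of 33723 S100a8 UMIs, at 36.9% (36.3 to 37.5) of the pair. The 286 control and 77 ISO barcodes outside the cell filters held S100a9 at 1863 and 3637 CPM.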
